A study of Mus musculus with 6 samples.

Results

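The 9 genes described here encode enzymes of the tricarboxylic acid cycle: Cs, Idh2, Idh3a, Idh3b, Ogdh, Sucla2, Suclg1, Fh1 and Mdh2. They were taken by symbol from a deposited table of 26106 mouse genes, in which each symbol had 1 entry, and all 9 passed the filter on low counts with 15590 genes in all. The libraries were made from macrophages grown in M-CSF from the bone marrow of wild-type male C57BL/6 mice aged 6 weeks, 3 libraries for each of 2 groups, all with the same batch label. Ctrl cells had 2 days of M-CSF at 30 ng/mL and RANKL at 100 ng/mL, the ligand that turns such macrophages into osteoclasts, in medium with 10% serum. ZM cells had the same medium, cytokines and time with 10 uM ZM, which the series title gives as ZM-306416, known as an inhibitor of VEGF receptor kinases. The labels do not name a vehicle for Ctrl, and whether the 3 replicates in each group are separate mice or separate dishes is not labelled. The p-values therefore reflect only how these libraries vary, which may be technical variation.

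The cycle runs in the mitochondrial matrix. Citrate synthase joins acetyl-CoA to oxaloacetate, and the dehydrogenases that follow release carbon dioxide and pass electrons to NADH and, through succinate dehydrogenase, to the respiratory chain, until malate dehydrogenase restores oxaloacetate. Osteoclasts are known for a high content of mitochondria, and macrophages draw cycle intermediates off for other uses, among them itaconate, which is made from aconitate.

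With ZM, 3 of the 9 enzymes fell, namely Idh3a, Mdh2 and Cs, to 52.4%, 64.0% and 70.6% of their Ctrl levels. None rose, and the other 6 were not called, at adjusted p from 0.0572 for Idh2 to 0.617 for Suclg1 (edgeR quasi-likelihood test, Benjamini-Hochberg adjustment over all genes). Among all 15590 genes tested, 5.44% were called lower and 5.54% higher, and 6.17% of the 4294 genes that averaged 50 CPM or more were called lower. The fold change of each of the 9 was below 0 on the log2 scale, with a median of -0.37 against 0.0027 for all genes tested. By CPM, each ZM library lay below each Ctrl library for 8 of the 9, all but Suclg1, an arrangement seen in 21.4% of all genes tested. The count of 3 became 0 without Ctrl replicate 1, 2 or 3, where 0.872%, 1.05% and 0.728% of all genes tested were called lower. It was 3, 5 and 6 without ZM replicates 1, 2 and 3, where 2.45%, 15.3% and 9.56% of all genes were called lower. The median fold stayed between -0.43 and -0.30 in these 6 fits.

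The libraries held 45512004 to 54256377 counts, and the counts of the 9 genes in a library ran from 2860 for Idh3a in ZM replicate 3 to 22978 for Mdh2 in Ctrl replicate 3. ZM replicate 3 stood apart: its correlation with ZM replicates 1 and 2 on the log2(CPM + 1) scale was 0.988 and 0.980 (Pearson's r across genes, which are not independent replicates), against 0.998 between Ctrl libraries. All 8 osteoclast markers fell, from a summed 4661 to 4944 CPM in Ctrl to 473 to 849 CPM in ZM. Of 7 macrophage markers 4 rose and 3 were not called, with a median log2 fold of 0.61 (0.17 to 1.53). The sum of all 7, mostly Lyz2, was 10097 to 11519 CPM in Ctrl and 18506 to 38478 CPM in ZM. The labelled cell type thus had its markers in both groups. ZM replicate 3 had the lowest osteoclast sum and the highest macrophage sum. It also had the lowest sum of 4 markers of cycling cells, of which 0 were called by edgeR, 0 at an unadjusted p under 0.05 and 0 by DESeq2, at 699.9 CPM, while the highest ZM library had 1485 CPM. Markers of B cells, T and NK cells, neutrophils, mast cells and dendritic cells each summed to at most 2.98 CPM in any library, and those of erythroid cells to at most 3.32 CPM. Those of megakaryocytes reached 37.4 CPM in ZM, of which Pf4 gave 36.9 CPM, and those of endothelial and stromal cells 51.8 and 18.9 CPM in Ctrl, mostly Kdr and Runx2. Less RNA per cell and fewer cells of a kind cannot be told apart in bulk samples, and the part of these differences in the results below was not tested.

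Cs lies on chromosome 10 of GRCm38 (128337734 to 128362479, forward strand), Idh3a on chromosome 9 (54586334 to 54604661, forward), Idh3b on chromosome 2 (130279309 to 130284547, reverse) and Idh2 on chromosome 7 (80094846 to 80115392, reverse). Ogdh lies on chromosome 11 (6291633 to 6356642, forward), Sucla2 on chromosome 14 (73525319 to 73596142, forward), Suclg1 on chromosome 6 (73248382 to 73276911, forward), Fh1 on chromosome 1 (175600374 to 175625635, reverse) and Mdh2 on chromosome 5 (135778480 to 135790398, forward). All are protein-coding, and no chromosome holds more than 1 of them. Exons of Idh3b share 5 bases with those of Nop56 on the opposite strand, and the other 8 share none with an annotated gene.

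The promoters of Cs and Mdh2, which fell, and of Suclg1, which had the smallest fold change, are shown for their sequence before the start of transcription. RefSeq windows on GRCm38.p6 were found for 8 of the 9 genes, all but Idh3a, which the motif counts below therefore do not cover. The stretches below are the bases before the RefSeq start that lie ahead of any annotated exon, on the forward strand, at chr10:128337477-128337726, chr5:135778399-135778479 and chr6:73248255-73248381. Capitals mark the CCAAT box (CCAAT) and the GC box (GGGCGG), read on either strand.
Cs: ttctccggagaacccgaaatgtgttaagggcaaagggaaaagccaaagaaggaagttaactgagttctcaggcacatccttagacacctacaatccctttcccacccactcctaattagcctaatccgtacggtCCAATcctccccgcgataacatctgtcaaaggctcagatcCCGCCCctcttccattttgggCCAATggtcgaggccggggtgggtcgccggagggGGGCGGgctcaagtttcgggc
Mdh2: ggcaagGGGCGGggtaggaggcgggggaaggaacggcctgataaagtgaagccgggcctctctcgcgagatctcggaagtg
Suclg1: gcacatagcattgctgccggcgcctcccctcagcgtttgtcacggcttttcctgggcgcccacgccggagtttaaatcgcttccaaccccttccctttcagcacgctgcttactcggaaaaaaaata
The Cs window held 2 CCAAT boxes, beginning 116 and 55 bases before the start, and 2 GC boxes, beginning 76 and 21 bases before it. The Mdh2 and Suclg1 stretches leave out the last 169 and 123 bases before the RefSeq start, where an annotated exon begins. The Mdh2 stretch held 1 GC box, beginning 244 bases before the RefSeq start, which the printed stretch does not reach. The Suclg1 stretch held neither motif. Over the full 250 bases before each start, a CCAAT box was present for 5 of the 8 genes (Cs, Idh2, Idh3b, Ogdh and Fh1) and in 33.8% of all 32851 windows. A GC box was present for 6 of the 8 (Cs, Idh2, Ogdh, Sucla2, Fh1 and Mdh2) and in 32.7% of all windows. The core of the element bound by oestrogen-related receptors (AAGGTCA) was in 0 of the 8 and in 4.08% of all windows. The NRF1 core (GCGCATGC) and the E-box (CACGTG) were each found for 1 of the 8, Ogdh, which has 6 windows, and in 2.26% and 6.02% of all windows. The ETS site (CCGGAAG) and the YY1 core (ATGGCG) were in 0 of the 8 and in 6.91% and 5.73% of all windows. A gene was counted if any of its windows held the motif, while the percentages are of single windows. For Ogdh, with its 6 windows, the counts of all these motifs are thus not in the unit of the percentages. A match is a run of letters on either strand and not a shown site.

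By deposited FPKM, which divides counts by gene length and by the library total, Mdh2 was the most abundant of the 9 in Ctrl at 123 ± 7.29 (SD, n = 3). Cs followed at 73.2 ± 1.90, Idh3b at 54.1 ± 2.2, Idh2 at 51.9 ± 0.876, Ogdh at 47.7 ± 0.753 and Idh3a at 33.2 ± 0.425 FPKM. Fh1, Sucla2 and Suclg1 were lowest at 22.5 ± 1.19, 21 ± 0.331 and 20.6 ± 0.0690 FPKM. Between neighbours in this order the ranges of the Ctrl libraries overlapped only for Idh3b and Idh2. In ZM, Mdh2 was still highest, at 75.3 ± 10.2 FPKM. Idh3a was the last of the 9 at 16.8 ± 5.03 FPKM, with libraries that overlapped those of Sucla2, the next above it at 18.3 ± 1.98 FPKM. Summed over the 9, the level was 447 ± 12.4 FPKM in Ctrl and 311 ± 39.1 FPKM in ZM. FPKM has no composition factor, and the TMM factors were 1.02 to 1.03 in Ctrl and 0.995, 1.02 and 0.919 in ZM replicates 1, 2 and 3. By CPM scaled with these factors, the sum was 1771 to 1880 in Ctrl and 1214 to 1451 in ZM.

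**Figure D1:**
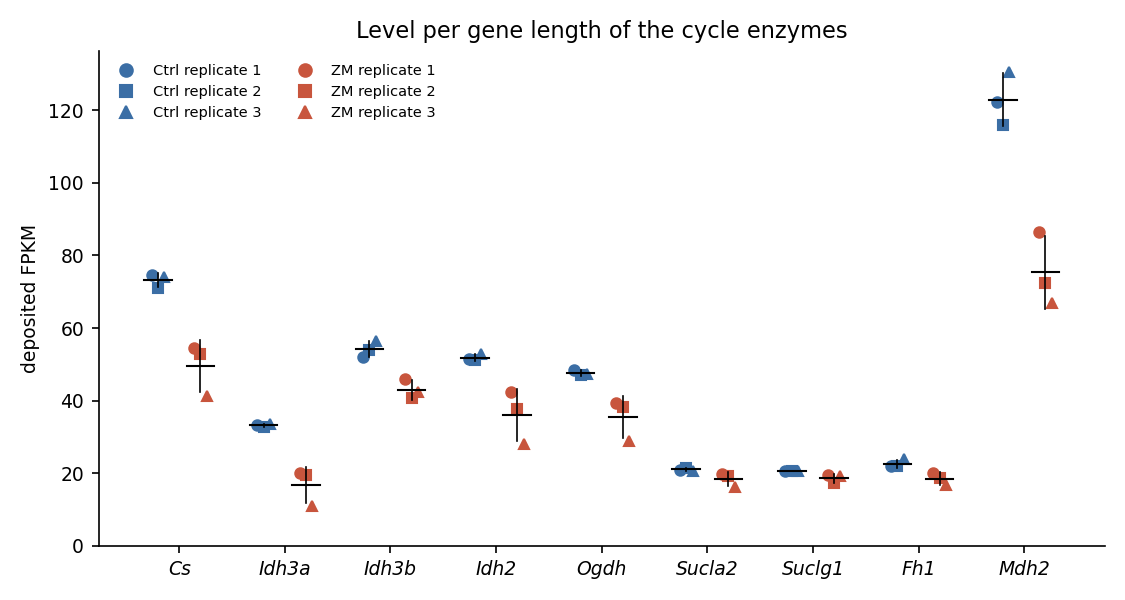
Deposited FPKM of the 9 cycle enzymes in each library, with Ctrl in blue and ZM in red; horizontal lines are group means and vertical lines SD (n = 3). Mdh2 is highest in both groups, and Idh3a moves from 33.2 FPKM in Ctrl to 16.8 FPKM in ZM, below the Fh1, Sucla2 and Suclg1 means.

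Citrate synthase (Cs, ENSMUSG00000005683) opens the cycle. Its level was 419.7, 399.9 and 421 CPM in Ctrl replicates 1, 2 and 3, and 317, 299.9 and 259.7 CPM in ZM replicates 1, 2 and 3. The 3 ZM libraries were all below the 3 Ctrl libraries, with ZM replicate 3 the lowest. Cs fell with a log2 fold change of -0.50 (SE 0.10, adjusted p = 0.0263, edgeR). The call was lost without Ctrl replicate 1, 2 or 3 (adjusted p = 0.139, 0.115 and 0.136), where the log2 fold was -0.49, -0.53 and -0.49.

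Isocitrate is oxidised in the mitochondrion by a pair of enzymes: the NAD-dependent IDH3, built of alpha, beta and gamma subunits, and the NADP-dependent IDH2. Idh3a (ENSMUSG00000032279) encodes the catalytic alpha subunit of IDH3. It stood at 164, 162 and 168 CPM in the Ctrl libraries and at 102, 96.3 and 60.6 CPM in ZM replicates 1, 2 and 3. The groups were well apart, and ZM replicate 3 lay far below the other ZM libraries. Idh3a fell by 0.93 on the log2 scale (SE 0.19, adjusted p = 0.0256, edgeR), and by 0.73 without ZM replicate 3 (adjusted p = 2.1e-04). Without single Ctrl libraries the log2 fold was -0.95 to -0.92 and the adjusted p 0.105 to 0.118.

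Idh3b (ENSMUSG00000027406), the beta subunit of the same enzyme, was at 174, 179.5 and 190.1 CPM in Ctrl and 158, 136 and 158 CPM in ZM. Here ZM replicate 2 was the lowest library, and ZM replicate 3 was level with replicate 1. The difference was not called (log2 fold -0.27, 95% interval -0.49 to -0.04, adjusted p = 0.114, edgeR). It was called in 2 of 17 alternatives, among them the fit without ZM replicate 3 (-0.30, adjusted p = 0.0430). Without Ctrl replicate 3 the adjusted p was 0.326. Idh3g, the gamma subunit, averaged 133 ± 6.01 CPM without ZM and 123 ± 19.6 CPM with it, and its groups overlapped (log2 fold -0.11, or -0.19 to 0.013 over the 17 alternatives, adjusted p = 0.558). Of the FPKM of the 3 subunits, Idh3a made up 24.8%, 24.0% and 23.6% in the Ctrl libraries and 17.5%, 19.8% and 11.0% in ZM replicates 1, 2 and 3. That share was lower in 3 of 3 ZM libraries, and its group mean differed by -8.05 percentage points (two-sided exact permutation p = 0.1, the smallest that 3 against 3 libraries allow, adjusted p = 0.1 over 4 shares).

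Idh2 (ENSMUSG00000030541) makes NADPH in the matrix. It was at 129.8, 129 and 135 CPM in Ctrl and at 110.1, 95.4 and 79.0 CPM in ZM. All ZM libraries were below all Ctrl libraries, with ZM replicate 3 the lowest. The log2 fold of -0.47 (SE 0.13, 95% interval -0.77 to -0.17) was just over the threshold, with adjusted p = 0.0572. The gene passed in 6 of the 17 other settings, including DESeq2 (adjusted p = 0.0113) and the fits without ZM replicate 2 (0.0467) or 3 (0.0188). Without Ctrl replicate 1, 2 or 3 the adjusted p was 0.193, 0.183 and 0.199 (edgeR). Idh1, the cytosolic enzyme of the same reaction, was at 127 ± 2.72 CPM in Ctrl and at 181, 165 and 323 CPM in ZM replicates 1, 2 and 3. Its log2 fold of 0.81 was not called (adjusted p = 0.0716), and was 0.45 without ZM replicate 3 (adjusted p = 0.0031). Idh1 was called in 6 of 17 alternatives. It was not called without Ctrl replicate 1, 2 or 3 or ZM replicate 1 (edgeR adjusted p = 0.216, 0.213, 0.203 and 0.0998). Of the FPKM of Idh1 and Idh2 together, Idh2 held 52.1%, 52.7% and 52.6% in Ctrl and 39.5%, 38.2% and 20.7% in ZM. This share was lower in 3 of 3 ZM libraries, with a difference of means of -19.7 percentage points, and of -13.6 without ZM replicate 3 (exact permutation p = 0.1 over all 6 libraries, adjusted p = 0.1).

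**Figure D2:**
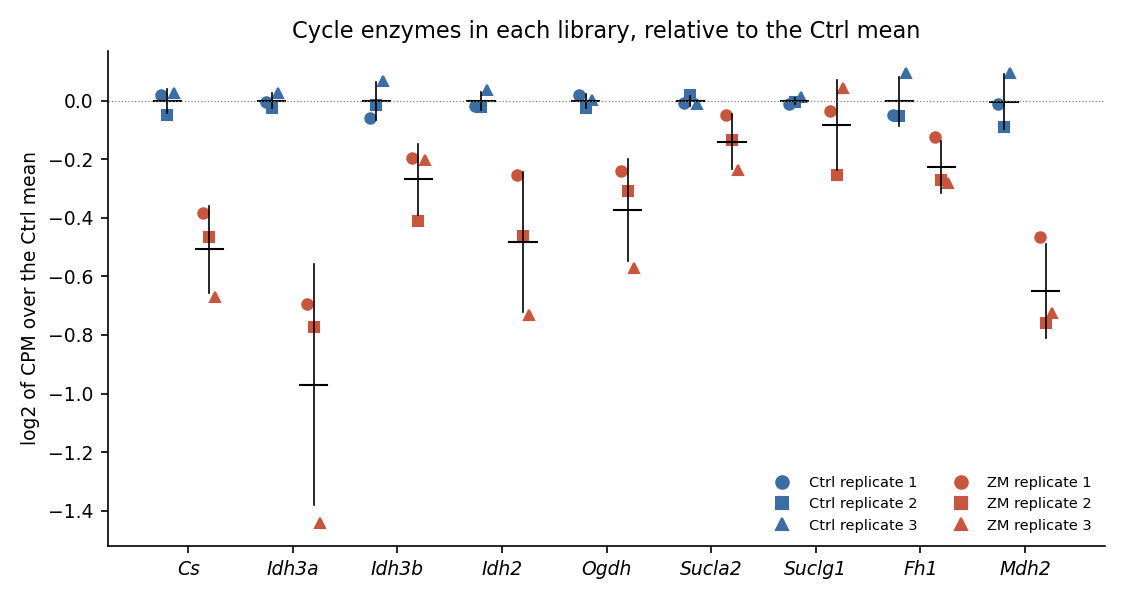
Log2 of CPM over the Ctrl mean of each gene, for the 9 cycle enzymes in each library; horizontal lines are means and vertical lines SD of the log2 values (n = 3). ZM replicate 3 (red triangle) is lowest for Cs, Idh3a, Idh2, Ogdh, Sucla2 and Fh1, and above the Ctrl mean for Suclg1.

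Ogdh (ENSMUSG00000020456) is the first component of the 2-oxoglutarate dehydrogenase complex, which makes succinyl-CoA. The Ctrl libraries were at 258, 250.1 and 255 CPM and the ZM libraries at 215, 205 and 171 CPM. The groups did not overlap, and ZM replicate 3 was again the lowest. The log2 fold of -0.37 (95% interval -0.62 to -0.12) was not called (adjusted p = 0.0684, edgeR). Ogdh passed in 4 of 17 alternatives, including DESeq2 (0.0171) and edgeR without ZM replicate 2 (0.0393) or 3 (0.0203). Without Ctrl replicate 1, 2 or 3 the adjusted p was 0.236, 0.209 and 0.216. The other components of the complex fell: Dlst, the succinyltransferase, from 256 ± 7.14 to 183 ± 22.4 CPM (log2 fold -0.48, adjusted p = 0.0362), and Dld, the lipoamide dehydrogenase shared with the pyruvate complex, from 182 ± 8.45 to 138 ± 5.60 CPM (-0.39, adjusted p = 0.0331).

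Succinyl-CoA ligase pairs the alpha subunit Suclg1 with the ADP-forming beta subunit Sucla2 or the GDP-forming beta subunit Suclg2. Suclg1 (ENSMUSG00000052738) was at 92.3, 92.7 and 93.8 CPM in Ctrl and 90.6, 77.9 and 95.8 CPM in ZM. By CPM it was the single gene of the 9 whose groups overlapped, with ZM replicate 3 the highest library. By FPKM, which has no composition factor, its groups did not overlap. Suclg1 was at 20.5, 20.6 and 20.6 FPKM in Ctrl and at 19.5, 17.2 and 19.1 FPKM in ZM. Its log2 fold of -0.08 had a 95% interval of -0.31 to 0.16 (adjusted p = 0.617), and without ZM replicate 2 it was 0.0064. Sucla2 (ENSMUSG00000022110) was at 81.5, 83.0 and 81.2 CPM in Ctrl and 79.2, 74.7 and 69.6 CPM in ZM. The ZM libraries were all below Ctrl, replicate 1 only slightly. The log2 fold was -0.14, with a 95% interval of -0.34 to 0.07 (adjusted p = 0.307), and neither gene was called in any of 17 alternatives. Suclg2 fell from 46.4 ± 2.44 to 31.9 ± 4.59 CPM (log2 fold -0.54, adjusted p = 0.0390). As a share of the FPKM of both beta subunits, Sucla2 rested at 66.3%, 68.8% and 66.4% in Ctrl and at 72.6%, 71.6% and 75.2% in ZM. The share was higher in 3 of 3 ZM libraries, by 5.90 percentage points (exact permutation p = 0.1, adjusted p = 0.1).

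Fh1 (ENSMUSG00000026526), which hydrates fumarate to malate, was at 72.3, 72.2 and 79.8 CPM in Ctrl and 68.6, 62.0 and 61.5 CPM in ZM. All ZM libraries lay below Ctrl, ZM replicate 1 by little. The log2 fold of -0.22 (95% interval -0.44 to -0.01) was not called, with adjusted p = 0.148 and 0 calls in 17 alternatives.

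Mdh2 (ENSMUSG00000019179), the mitochondrial malate dehydrogenase, closes the cycle. It was at 425, 402 and 457 CPM in Ctrl and 310.2, 253 and 259 CPM in ZM. Here ZM replicates 2 and 3 were alike and replicate 1 was the nearest to Ctrl. Mdh2 fell by 0.64 on the log2 scale (SE 0.11, adjusted p = 0.0163, edgeR), but was not called without Ctrl replicate 1, 2 or 3 (adjusted p = 0.0937, 0.0757 and 0.106). Mdh1, the cytosolic form, averaged 234 ± 13.4 CPM without ZM and 184 ± 16.1 CPM with it (log2 fold -0.35, not called, adjusted p = 0.0678). Of the FPKM of Mdh1 and Mdh2 together, Mdh2 held 58.3%, 57.2% and 57.8% in Ctrl and 53.9%, 53.2% and 50.9% in ZM, a difference of -5.11 percentage points seen in 3 of 3 ZM libraries (exact permutation p = 0.1, adjusted p = 0.1).

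**Figure D3:**
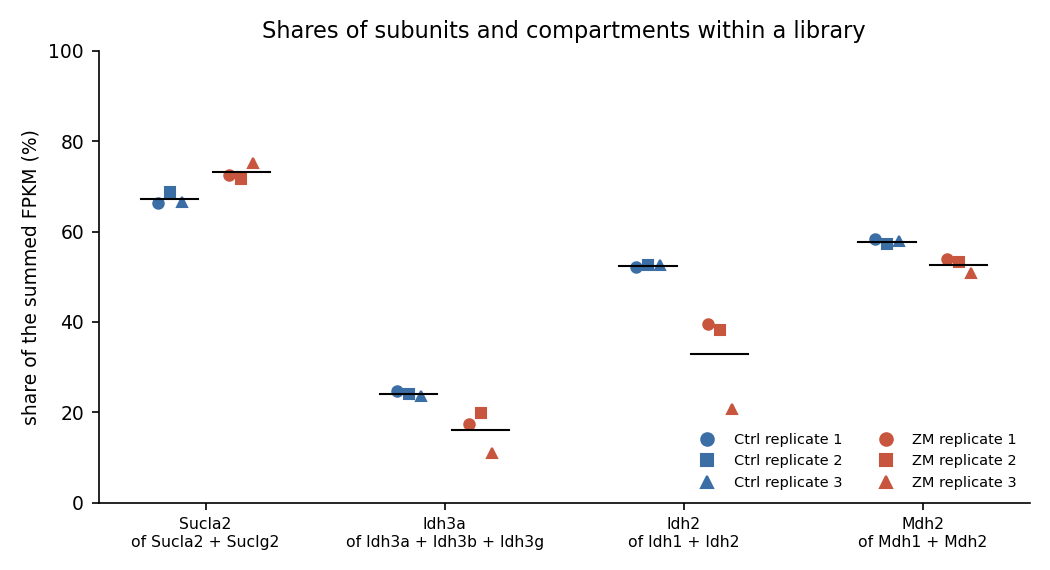
Share of the summed FPKM in each library for the beta subunits of succinyl-CoA ligase, the IDH3 subunits, and the mitochondrial against the cytosolic isocitrate and malate dehydrogenases; horizontal lines are group means (n = 3). The groups do not overlap in any of the 4 shares, and the widest gap is that of Idh2, from 52.5% in Ctrl to 32.8% in ZM.

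Over 8 other nuclear-encoded subunits of the cycle, 5 fell, 0 rose and 3 were not called, with a median log2 fold of -0.38. Beside Dlst, Dld and Suclg2 these were a pair of subunits of succinate dehydrogenase. Sdha, its flavoprotein, fell from 488 ± 13.4 to 329.6 ± 36.8 CPM (log2 fold -0.57, adjusted p = 0.0208) and Sdhd, a membrane anchor, from 201 ± 3.07 to 155 ± 12.6 CPM (-0.38, adjusted p = 0.0439). The iron-sulphur subunit Sdhb and the anchor Sdhc were at 201 ± 6.15 and 159 ± 4.73 CPM in Ctrl and 180.4 ± 18.1 and 161 ± 17.8 CPM in ZM, not called at adjusted p = 0.307 and 0.903, and the log2 fold of Sdhc ran from -0.05 to 0.11 over the alternatives. The count of 5 became 0 without any 1 Ctrl library, 1 without ZM replicate 1 and 3 without composition factors, and was 5 without ZM replicate 2 or 3.

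**Figure D4:**
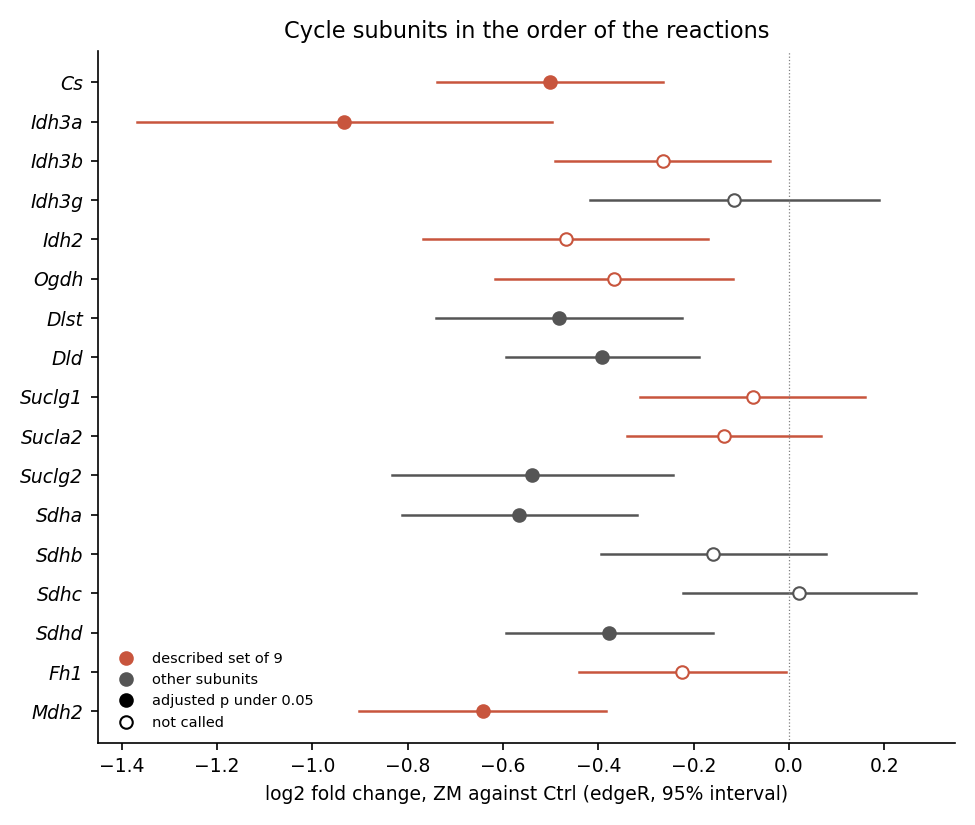
Log2 fold change of ZM against Ctrl with 95% interval (edgeR, n = 3 per group) for 17 nuclear-encoded cycle subunits in the order of the reactions; red marks the 9 enzymes described here, grey the other subunits, and filled points adjusted p under 0.05. Filled points run from -0.93 for Idh3a to -0.38 for Sdhd, and Sdhc is the only point above 0.

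The list of pyruvate entry includes kinases and phosphatases that control the pyruvate dehydrogenase complex. Of its 12 tested genes, 3 fell, 0 rose and 9 were not called, with a median log2 fold of -0.26 over this mixed list. The 3 that fell were subunits of the complex, which makes acetyl-CoA. Pdha1 fell from 148 ± 3.90 to 86.1 ± 22.9 CPM (log2 fold -0.78, adjusted p = 0.0421), Pdhb from 165 ± 2.00 to 122 ± 6.97 CPM (-0.44, adjusted p = 0.0234) and Dlat from 78.0 ± 1.78 to 59.0 ± 4.53 CPM (-0.40, adjusted p = 0.0368). The count of falls was 0 without any 1 Ctrl library and 1, 5 and 4 without ZM replicates 1, 2 and 3, and 2 and 1 genes of the list were called higher without ZM replicates 2 and 3. Among all genes tested, 2571 of 16002 and 1588 of 16024 were called higher without ZM replicates 2 and 3. The median of the list was -0.13 without ZM replicate 3. Pdha1 shares 603 exonic bases with Map3k15 on the opposite strand, which had 2092 counts against 35302.

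Of 14 tested genes of side entries and exits, 3 rose, 0 fell and 11 were not called by edgeR, with a median log2 fold of -0.03. Calls in both directions were made by DESeq2 (1 lower and 4 higher), by limma-voom with quality weights (3 and 4), and without ZM replicate 2 (2 and 3) or 3 (1 and 4). Among all genes tested, DESeq2 called 3295 and quality weights 6622 of 15590. Without ZM replicate 2 or 3, 5023 of 16002 and 3120 of 16024 were called. Acod1, which makes itaconate from the cycle intermediate aconitate, was at 36.8, 34.6 and 37.2 CPM in Ctrl and 68.4, 63.5 and 69.7 CPM in ZM. Acod1 rose 1.86-fold (log2 fold 0.89, SE 0.09, adjusted p = 0.00317) and was called in 17 of 17 alternatives. Pck2, which turns oxaloacetate into phosphoenolpyruvate in the matrix, rose from 28.4 ± 0.851 to 45.6 ± 5.00 CPM (log2 fold 0.68, adjusted p = 0.0131), and Mcee, the epimerase of the propionate route to succinyl-CoA, from 20.8 ± 2.10 to 33.0 ± 6.86 CPM (0.67, adjusted p = 0.0421). Pck2 and Mcee lost the call without any 1 Ctrl library or ZM replicate 1, at adjusted p from 0.0516 to 0.0892 and from 0.0837 to 0.180.

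Among the 6 enzymes outside the mitochondrion 1 fell, 0 rose and 5 were not called by edgeR, while 5 had an unadjusted p under 0.05 and DESeq2 called 3 lower and 2 higher. Of all genes tested, 32% had an unadjusted p under 0.05 and DESeq2 called 21.1%. The fallen gene was Aco1, the cytosolic aconitase and iron regulatory protein, from 90.0 ± 0.923 to 71.0 ± 2.26 CPM (log2 fold -0.34, adjusted p = 0.0391). Aco1 was called in 11 of 17 alternatives, and lost the call without any 1 Ctrl library (adjusted p = 0.186, 0.176 and 0.166) or ZM replicate 1 (0.0991). Without a filter on low counts, 0 of the 6 were called lower and 1 higher. None of 6 tested carriers of cycle acids and none of 11 genes of lipoylation and complex II assembly was called by edgeR, at median log2 folds of 0.15 and -0.01. At an unadjusted p under 0.05 there were 3 and 1 such genes, and DESeq2 called 3 and 1. Without ZM replicate 2 edgeR called 4 of the carriers, 1 lower and 3 higher, and 1 gene of lipoylation and assembly, and without ZM replicate 3 it called 2 and 1. Over all genes tested, 5023 of 16002 were called without ZM replicate 2 and 3120 of 16024 without ZM replicate 3. Of the 13 mRNAs of mitochondrial DNA, 0 were called by edgeR, 4 had an unadjusted p under 0.05 and DESeq2 called 2, with a median log2 fold of -0.01. Without ZM replicate 2 edgeR called 7 of the 13, 4 lower and 3 higher, and without ZM replicate 3 it called 2 higher. With quality weights limma-voom called 5 lower and 4 higher, and 6622 of all 15590 genes tested. The mRNAs of mitochondrial DNA made up 3.10 ± 0.0811% of all counts in Ctrl and 2.81 ± 0.383% in ZM, with overlapping groups, while the 9 enzymes went from 0.186 ± 0.00469% to 0.130 ± 0.0166%.

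Regulators of nuclear genes for mitochondria gave 1 fall among 5 tested. Ppargc1b, a coactivator that works with oestrogen-related receptors, fell from 26.7 ± 1.88 to 7.26 ± 1.48 CPM (log2 fold -1.88, adjusted p = 0.00235) and was called in 17 of 17 alternatives. Esrra, which encodes such a receptor, was at 54, 56.0 and 57.7 CPM in Ctrl and 46.8, 46.2 and 53.2 CPM with the compound (log2 fold -0.20, not called, adjusted p = 0.196). Each ZM library was below each Ctrl library, as for 21.4% of all genes tested. Esrra was called in 2 of 17 alternatives, among them the fit without ZM replicate 3 (-0.26, adjusted p = 0.0324, edgeR). Without Ctrl replicate 1, 2 or 3 the adjusted p was 0.359, 0.397 and 0.437. Exons of Esrra share 73 bases with Trmt112 on the opposite strand, which had 12734 counts against 15725.

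**Figure D5:**
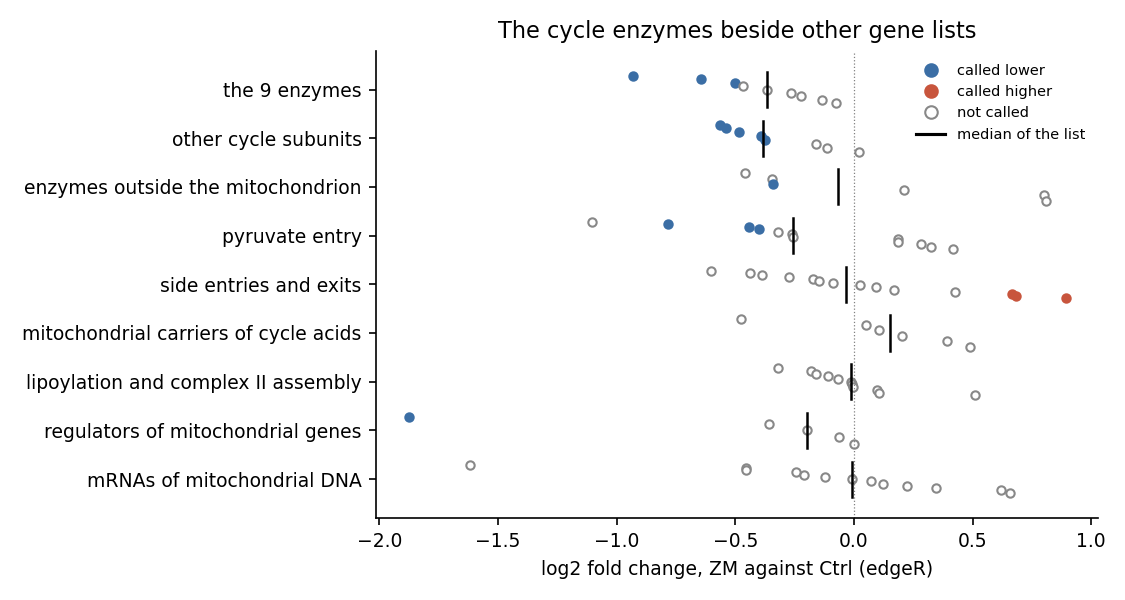
Log2 fold change of ZM against Ctrl (edgeR) of each tested gene in the 9 enzymes and 8 other lists; blue is called lower, red called higher, open circles not called, and the line is the median of the list. The median is -0.37 for the 9 enzymes and -0.38 for the other cycle subunits, and the 3 red points are Mcee, Pck2 and Acod1.

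Outside the 9, the genes whose level over the 6 libraries was most like the mean of their standardised levels were Atp5b, Wsb2, Cyc1, Slc25a5 and Mrpl51, with Pearson's r of 0.997 for the first 4 and 0.996 for the last among 8796 genes of at least 10 CPM. The 6 libraries include both groups, so a shared difference between groups enters this r, which is given without a test. Atp5b encodes a catalytic subunit of ATP synthase, and fell from 1349 ± 60.8 to 993 ± 100.1 CPM (log2 fold -0.44, adjusted p = 0.0388). Cyc1, a subunit of respiratory complex III, fell from 147 ± 7.49 to 101 ± 11.7 CPM (-0.55, adjusted p = 0.0244), and Slc25a5, an ADP/ATP carrier, from 753 ± 22.0 to 542 ± 54.5 CPM (-0.47, adjusted p = 0.0301). Without single Ctrl libraries all 3 lost the call, at adjusted p from 0.139 to 0.177 for Atp5b, 0.109 to 0.132 for Cyc1 and 0.126 to 0.152 for Slc25a5. Mrpl51, a mitochondrial ribosomal protein, and Wsb2 were not called, at log2 folds of -0.37 and -0.18 (adjusted p = 0.0591 and 0.179). Exons of Wsb2 share 499 bases with Rfc5 on the opposite strand, which had 17569 counts against 58058. Each of the 5 had all ZM libraries below all Ctrl libraries, as did 21.4% of all genes tested. Choosing genes by their r with the 9 favours that arrangement and the falls above, so neither is further evidence.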

How the data were processed

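Counts and FPKM came from 1 table of 26106 genes and 6 libraries. The deposited counts were whole numbers that the authors had not normalized; the deposited FPKM are these counts over gene length and column total. The recovered lengths were whole within 0.001 bases, and for the 17 cycle genes equalled the exonic bases of GENCODE M21 (GRCm38, which mm10 names). The build mm10 and the tools DESeq2, featureCounts 2.0.3, Subread and HISAT2 2.2.1 are named, without role or order, per the submitters' processing notes. Strand setting and filters are not given in the sources used here. Even numbers made up 72.7% to 76.4% of counts of 1 to 20, so both mates of a pair may have been counted.

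The main test was edgeR 4.0.16 under R 4.3.3 (filterByExpr, TMM, quasi-likelihood F test on group, Benjamini-Hochberg over 15590 genes, threshold 0.05). Levels are CPM on TMM-scaled library sizes, mean ± SD of 3 libraries, and fold changes are ZM against Ctrl. SE is the log2 fold over the square root of F. Shares were computed from FPKM within a library, so no library scaling moves them, and compared by a two-sided exact permutation test. The code was checked on simulated counts. Gene positions are from GENCODE M21 and promoter windows from RefSeq (GRCm38.p6).

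Named genes were the 9 enzymes, 8 other cycle subunits, up to 4 called genes of each further list with Acod1, Esrra and Ppargc1b, the cytosolic partners used in the shares, and the 5 genes most like the 9. The 9 genes, the lists and the alternatives were chosen with earlier results of these data known. Alternatives were RLE, upper-quartile or no composition factors, a minimum of 1 CPM in each library, no filter, limma-voom (limma 3.58.1) without and with library quality weights, DESeq2 1.42.0, the replicate number as a block, counts divided by 2 and rounded up, the 20 most abundant genes left out, and each library left out in turn. Listed genes not found in the table were not analysed here, and 1 listed gene is not reported here.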

Additional observations from a re-analysis of the deposited data

How the results depend on the processing

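The fold changes of the 9 enzymes kept their sign in all 17 alternatives, except that of Suclg1, which ranged from -0.14 to 0.0064 with single libraries left out and was above 0 without ZM replicate 2 (the cause was not tested). The 3 calls were unchanged with RLE, upper-quartile or no composition factors, limma-voom, counts divided by 2 and the 20 most abundant genes left out, and Idh2 joined them without a filter or with at least 1 CPM in all libraries. DESeq2 called 5 of the 9 and 3295 genes in all, and limma-voom with quality weights called 6 of the 9 and 6622 genes, against 3 and 1711 by edgeR as reported. With single libraries left out, 0 to 6 of the 9 and 148 to 5023 genes were called, and the median fold of the 9 was -0.43 to -0.30. The cause of the spread between these fits was not tested. With the replicate number as a block the median was -0.37, and 3 of the 9, 2 of the 8 other cycle subunits and 1679 genes were called, and of the 6 enzymes outside the mitochondrion 0 were called lower and 1 higher. The numbers share no stated origin: the deviations of same-numbered libraries from their group means correlated at 0.0216, 0.0556 and 0.154 across genes, and not every library correlated best with its own number. The 4 shares kept their direction without gene lengths and without any single library. With 3 libraries per group, the exact test of a share cannot go below 0.1.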
